A study of Bos taurus with 3 samples.

Results

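The 10 genes described here encode integrin subunits of stromal cells: the beta subunits ITGB1, ITGB3 and ITGB5 and the alpha subunits ITGA1, ITGA2, ITGA3, ITGA5, ITGA6, ITGA11 and ITGAV. They were taken by name from 25 integrin subunit genes found among the 21861 genes listed, and all 10 were found. Earlier results of these data were known when they were chosen. They were followed in single-cell RNA sequencing libraries of primary mesenchymal stromal cell (MSC) cultures started from the adipose tissue, the bone marrow or the peripheral blood of a single cow, a healthy animal in its first lactation, labelled Holstein-Frisian. All 3 cultures were wild type (labelled WT) and untreated, were kept in DMEM of low glucose content with 30% FBS (fetal bovine serum), and were taken when MSC colonies could be seen. Each tissue gave 1 library, so culture, library and tissue cannot be told apart and no test between tissues was possible.

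Integrins are transmembrane receptors made of an alpha and a beta subunit, and they tie the extracellular matrix to the actin cytoskeleton. ITGB1 pairs with many alpha subunits, and the alpha partner sets the ligand: ITGA1, ITGA2 and ITGA11 bind collagens, ITGA3 and ITGA6 bind laminins, and ITGA5 and ITGAV bind the RGD peptide motif of fibronectin, vitronectin and related proteins. ITGAV also pairs with ITGB3 and ITGB5, whereas ITGB3 has a further partner on platelets. MSCs are selected in culture by adhesion to plastic, a step that works through matrix proteins on the dish.

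The libraries held 99356868, 106322567 and 98016815 unique molecular identifiers (UMIs, each a single captured mRNA molecule) for the adipose, bone marrow and blood cultures. Cells kept numbered 6088, 9281 and 3192, with median depths of 14391, 9096 and 24884 UMIs, and pairs of libraries shared 4 to 10 cell barcodes. The stromal-like clusters made up 6026 adipose, 8302 bone marrow and 3036 blood cells, 17364 of 18561 in all. The rest were 39 endothelial-like and 23 unnamed cells in the adipose culture, 515 macrophage-like cells and 464 of a cluster with both macrophage and stromal RNA in the bone marrow culture, and 156 macrophage-like cells in the blood culture. In the stromal-like cells 16 stromal markers summed to 8144, 11659 and 17488 CPM (UMIs per 1000000 UMIs), while 16 macrophage markers summed to 11.6, 21.6 and 12.7 CPM, with C1QB and C1QC at 0 in the adipose library. A list of neutrophil markers summed to 0.287, 36.0 and 3.50 CPM in the same order. All levels below are CPM of UMIs summed over the stromal-like cells of a library unless another class is named. They are transcript counts read at the 3′ end, not divided by gene length, and say nothing of protein at the cell surface. Intervals are exact 95% intervals and cover counting error only.

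ITGB1 was the most abundant member in every library. It stood at 675 CPM in adipose stroma (670 to 680), 825 CPM in bone marrow (819 to 831) and 725 CPM in blood (719 to 731), so bone marrow was highest and none of the intervals overlapped. The adipose over bone marrow ratio was 0.818, adipose over blood 0.931 and bone marrow over blood 1.14, each under the 2-fold limit used below. ITGB3, which with ITGAV forms a vitronectin receptor, was the second beta subunit at 90.8 CPM (88.9 to 92.7), 78.7 CPM (76.9 to 80.6) and 76.4 CPM (74.5 to 78.2) in the same order of libraries. Adipose stroma was the highest for ITGB3, and the bone marrow over blood ratio of 1.03 had an interval that included 1 (0.996 to 1.07). ITGB5, the other vitronectin-binding partner of ITGAV here, went the other way across libraries. It had 33.8 CPM in adipose stroma (32.6 to 35.0), 50.3 in bone marrow (48.9 to 51.8) and 52.0 in blood (50.4 to 53.5), and bone marrow and blood did not differ beyond counting error (ratio 0.969, 0.929 to 1.01). Among all beta subunit UMIs, ITGB1 made up 84.1%, 86.1% and 84.6%, ITGB3 11.3%, 8.22% and 8.91%, and ITGB5 4.21%, 5.26% and 6.06% in adipose stroma, bone marrow and blood.

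ITGA5, the alpha subunit of the fibronectin receptor, was the most abundant alpha subunit by a wide margin. Its level was 326 CPM in adipose stroma (322 to 330), 347 in bone marrow (343 to 350) and 383 in blood (379 to 387), and the 3 pairwise ratios lay close to 1, at 0.941 for adipose over bone marrow, 0.851 for adipose over blood and 0.905 for bone marrow over blood. ITGAV, the RGD-binding subunit with the broadest choice of beta partners, was next in adipose stroma and bone marrow but not in blood. It had 28.3 CPM (27.2 to 29.4), 38.3 CPM (37.0 to 39.6) and 52.5 CPM (50.9 to 54.0) in adipose stroma, bone marrow and blood, with adipose over blood at 0.539. The 2 RGD-binding subunits differed in their spacing: ITGA5 exceeded ITGAV 11.5-fold in adipose stroma, 9.04-fold in bone marrow and 7.30-fold in blood. For each ITGAV UMI there were 3.21, 2.05 and 1.46 UMIs of ITGB3 in adipose stroma, bone marrow and blood, and 4.41, 3.37 and 2.45 UMIs of ITGB3 and ITGB5 together, so these beta subunits outnumbered ITGAV in each library.

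ITGA1, a collagen receptor subunit, differed most between libraries among members above 50 CPM in any of them. It had 16.3 CPM in adipose stroma (15.5 to 17.1), 33.5 in bone marrow (32.3 to 34.8) and 103 in blood (101 to 105). Adipose stroma was thus 6.34-fold lower than blood (6.0 to 6.7) and bone marrow 3.08-fold lower than blood (2.95 to 3.21). In blood ITGA1 was the second alpha subunit, above ITGAV, while in adipose stroma and bone marrow it was below it. ITGA2, the other collagen receptor subunit widely known from platelets and epithelium, was at 1.74, 4.21 and 1.54 CPM, and adipose stroma and blood could not be separated by counting error (ratio 1.13, 0.894 to 1.44). ITGA1 and ITGA2 are neighbours in the RefSeq gene table of the ARS-UCD2.0 assembly, and there were 9.34 UMIs of ITGA1 for each of ITGA2 in adipose stroma, 7.95 in bone marrow and 67.0 in blood. ITGA11, the fibroblast collagen receptor subunit, was the lowest member everywhere: 19 UMIs or 0.202 CPM in adipose stroma, 270 UMIs or 3.08 CPM in bone marrow and 48 UMIs or 0.564 CPM in blood. Its bone marrow level was 5.46 times that of blood (4.01 to 7.59), and adipose stroma was 15.3-fold lower than bone marrow (9.59 to 25.8).

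The laminin receptor subunits were low in each library and highest in bone marrow. ITGA6 had 5.41 CPM in adipose stroma (4.95 to 5.90), 19.6 in bone marrow (18.7 to 20.5) and 10.7 in blood (10.0 to 11.4). ITGA3 had 3.32 CPM (2.96 to 3.71), 15.8 CPM (14.99 to 16.7) and 9.19 CPM (8.56 to 9.86) in the same order of libraries. For both genes the order was bone marrow, blood, adipose stroma. Adipose stroma was 3.62-fold lower than bone marrow for ITGA6 and 4.77-fold lower for ITGA3, and bone marrow over blood was 1.83 and 1.72. Within a library, sorting the members by level left 1 pair of neighbours that counting error could not order, ITGAV and ITGB5 in blood.

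**Figure D1:**
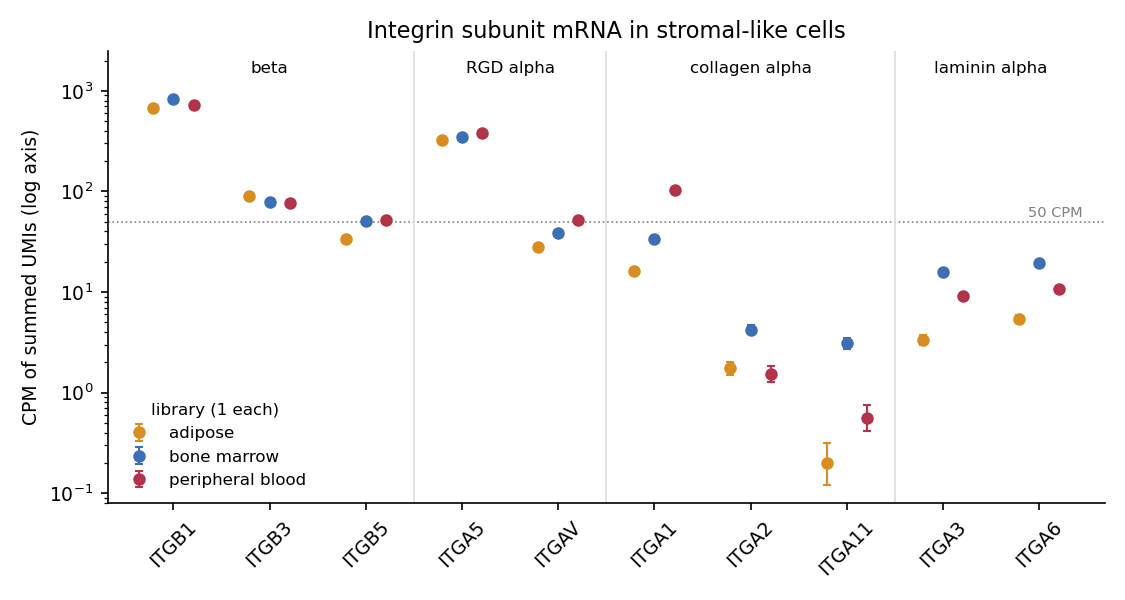
Level of each integrin subunit in stromal-like cells, in CPM on a log axis, by library, with exact 95% intervals from the UMI counts. ITGB1 and ITGA5 lie at the top in all 3 libraries, ITGA1 spans 16.3 to 103 CPM, and ITGA11 lies lowest.

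Tissues were called apart for a gene where the CPM ratio was at least 2 either way and one of the libraries reached 50 CPM. A gene that met this level limit was measured in that pair. In adipose over bone marrow 4 of the 10 members were measured and 0 were apart, where 6.11% of all 3161 measured genes were (2.66% higher and 3.45% lower in adipose stroma). In adipose over blood 6 were measured and ITGA1 was apart, lower in adipose stroma, where 5.07% of 3157 genes were (1.3% higher and 3.77% lower in adipose stroma). In bone marrow over blood 6 were measured and ITGA1 was again the member apart, lower in bone marrow, where 7.35% of 3131 genes were (3.29% higher and 4.06% lower in bone marrow). These comparisons share libraries, the blood library among them. In both pairs with blood, ITGA1 met the level limit through blood alone, where it was highest. It had 103 CPM there, against 16.3 in adipose stroma and 33.5 in bone marrow. The limit thus favoured calling it apart, and the 2 calls are not separate support. The median log2 ratio of the measured members was -0.19, -0.43 and -0.09 in these 3 pairs, beside 0.08, 0.13 and 0.04 over all measured genes. ITGA2, ITGA3, ITGA6 and ITGA11 were under 50 CPM in all 3 libraries, so they could not be called, whatever their ratios. The level limit therefore decided the adipose over bone marrow count. Without it, ITGA1, ITGA2, ITGA3, ITGA6 and ITGA11 were all at least 2-fold lower in adipose stroma. The share of all genes apart without the limit was not worked out, so nothing particular to the members is read from this. RNA in barcodes of 10 to 100 UMIs, which stands for RNA free in the suspension, held ITGA1 in the same order of libraries as the stromal-like cells, at 4.78, 13.1 and 39.1 CPM in adipose stroma, bone marrow and blood.

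ITGB1 pairs with 12 alpha subunits, and their UMIs were summed to see which partner transcripts dominate (36379 UMIs in adipose stroma, 40614 in bone marrow and 47853 in blood). ITGA5 made up 84.3% of them in adipose stroma, 74.7% in bone marrow and 68.1% in blood. ITGAV held 7.31%, 8.26% and 9.32%, and ITGA1 held 4.21%, 7.23% and 18.3%. The share not taken by ITGA5 was thus filled mainly by ITGA1 in blood and by several low subunits in bone marrow. Grouped by ligand, the RGD receptors ITGA5, ITGA8 and ITGAV held 91.6%, 83.0% and 77.5%, the collagen receptors ITGA1, ITGA2, ITGA10 and ITGA11 held 4.86%, 9.13% and 18.8%, and the laminin receptors ITGA3, ITGA6 and ITGA7 held 2.28%, 7.66% and 3.58%. Collagen receptors were therefore the second group in each library, with the laminin receptors close behind in bone marrow. Some ITGAV protein pairs with ITGB3 and ITGB5, so its share here is not that of ITGB1 pairs alone. Per ITGB1 UMI there were 0.573 alpha UMIs in adipose stroma, 0.562 in bone marrow and 0.776 in blood, a ratio that also carries how well each gene's 3′ end is captured.

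**Figure D2:**
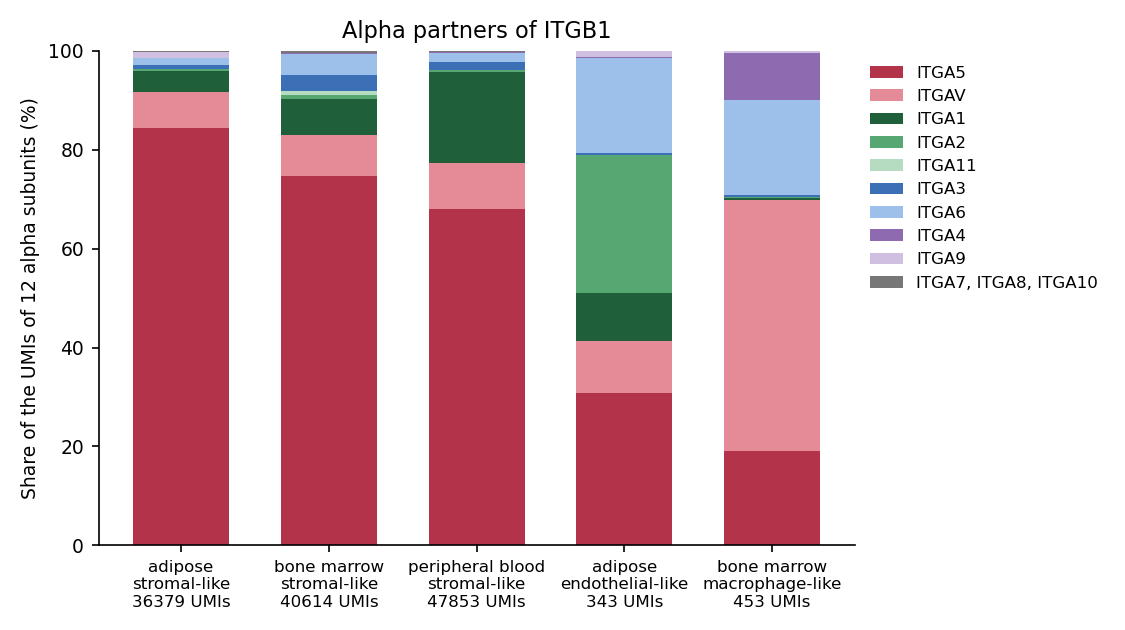
Share of each alpha subunit, in percent, among the UMIs of the 12 alpha subunits that pair with ITGB1, by library and cell class. ITGA5 fills 84.3%, 74.7% and 68.1% of the stromal-like bars of adipose stroma, bone marrow and blood, and ITGA1 reaches 18.3% in blood, while ITGAV fills 50.8% of the bar of bone marrow macrophage-like cells. Blood macrophage-like cells are not drawn, and ITGA5 held 67.4% of their alpha UMIs.

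At the level of single cells, ITGB1 was seen in the most cells, followed by ITGA5. Each cell was thinned to 3000 UMIs, a depth that all kept cells exceeded. ITGB1 was then seen in 84.2% of adipose, 90.7% of bone marrow and 87.3% of blood stromal-like cells, with a median of 2 UMIs per cell. ITGA5 was seen in 58.9%, 59.1% and 65.4%, and ITGB3 in 22.0%, 20.1% and 19.7%. ITGA1 was seen in 4.70%, 9.66% and 24.4%, ITGAV in 8.80%, 11.1% and 14.4%, and ITGB5 in 9.24%, 13.0% and 13.7%. For each of these subunits the shares put the libraries in the same order as the CPM did. At full depth ITGB1 had a UMI in 99.7%, 99.6% and 100% of cells and ITGA5 in 95.8%, 89.4% and 99.1%, while ITGA1 had one in 19.7%, 27.6% and 82.2%. In bone marrow macrophage-like cells, taken as the background class, ITGA1 was seen in 0 of 515 thinned cells, which allows a share of up to 0.583% of cells with a UMI, and ITGA5 in 5.05%, at median unthinned depths of 5916 UMIs there and 9107 UMIs in stromal-like cells. In blood macrophage-like cells, which carried stromal RNA as described below, ITGA1 was seen in 7.69% of 156 thinned cells (4.04% to 13.1%) and ITGA5 in 35.9%, at median unthinned depths of 20977 UMIs there and 24924.5 UMIs in stromal-like cells. The blood stromal-like shares of 24.4% and 65.4% were above both. ITGA2, ITGA3, ITGA6 and ITGA11 were the least often seen members in thinned stromal-like cells of every library, from 0.0166% for ITGA11 in adipose stroma to 5.64% for ITGA6 in bone marrow.

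The variation between cells beyond counting noise, as a coefficient of variation at 3000 UMIs, was 33.7%, 24.1% and 30.4% for ITGB1 in adipose stroma, bone marrow and blood. It was 44.2%, 51.0% and 37.5% for ITGA5, so the main alpha partner varied more than the beta subunit in each library. The median over all genes with at least 50 CPM was 26.2%, 26.3% and 28.0%. For the low subunits it depended on how depth was handled. ITGA1 had 0%, 59.7% and 88.1% at 3000 UMIs, and 109%, 58.4% and 73.2% when estimated at full depth with each cell's own total. ITGA6 had 297%, 136% and 56.4% at 3000 UMIs, and 141%, 136% and 166% at full depth. At 3000 UMIs few cells held a UMI of either gene in adipose stroma, so no order of libraries is read from these values. ITGA5 was steadier, with 44.9%, 45.5% and 40.0% at full depth. Across single cells the pairwise correlations between thinned members ran from -0.028 to 0.112 over 45 pairs in each library, and such weak values in sparse counts are no finding.

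The leading alpha subunit of a cell was the one with most UMIs among the 12. At 3000 UMIs it was ITGA5 in 53.2% of adipose, 49.1% of bone marrow and 49.8% of blood cells, while 34.6%, 29.1% and 21.6% of cells had no alpha UMI at all and 5.89%, 10.9% and 15.2% had a tie. ITGA1 led in 1.61%, 2.90% and 8.04%, and ITGAV in 3.24%, 3.87% and 3.59%. Blood therefore had the most cells led by ITGA1. In unthinned cells with at least 10 alpha UMIs (1013 adipose, 940 bone marrow and 2172 blood cells, which are 16.8%, 11.3% and 71.5% of stromal-like cells, since deeper cells pass this limit more often) ITGA5 had a median share of 87.5%, 80.0% and 70.0%. The quartiles were 79.3% to 92.9%, 70.0% to 90% and 57.1% to 80.0%, and ITGA5 held over 50% of the alpha UMIs in 99.01%, 94.3% and 83.0% of these cells. ITGA5 thus held the majority in most of the cells that could be scored, in each library, though its own UMIs largely decide which cells pass the limit.

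**Figure D3:**
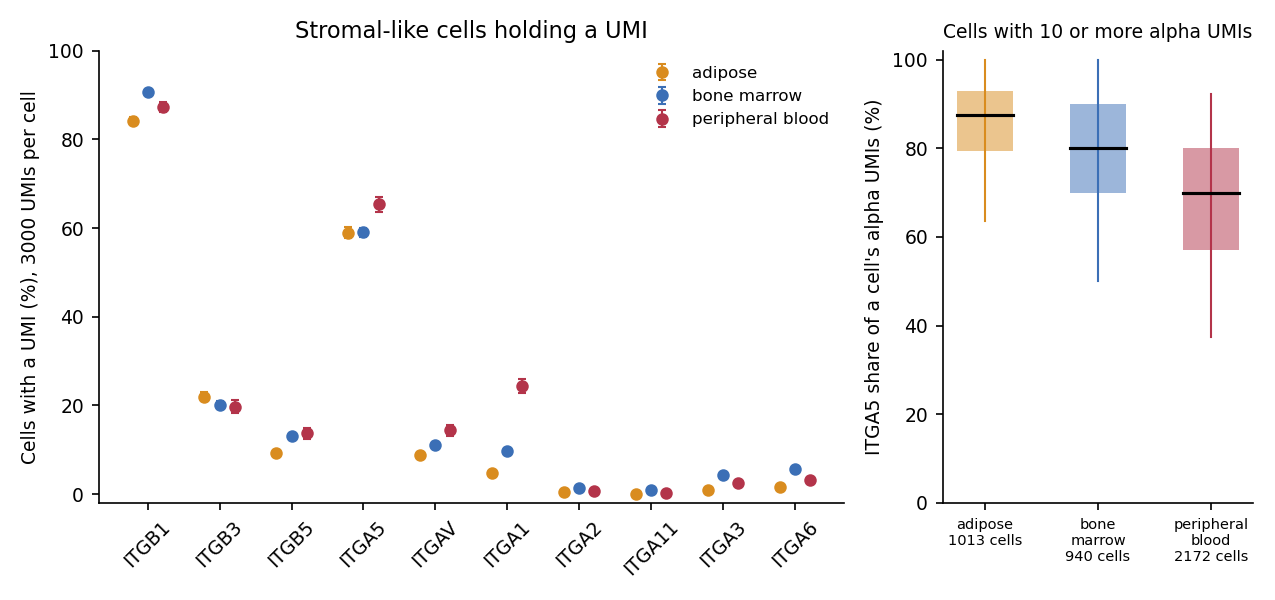
Left, percent of stromal-like cells with at least 1 UMI of each member after thinning to 3000 UMIs, by library, with exact 95% intervals. Right, the ITGA5 share of alpha UMIs per unthinned cell with at least 10 alpha UMIs (line, median; box, quartiles; thin line, percentiles 5 to 95), with medians of 87.5% in adipose stroma, 80.0% in bone marrow and 70.0% in blood.

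Each library's stromal-like cells fell into 4 to 6 clusters, found without the integrin genes. ITGB1 was even across them, with a highest over lowest ratio of 1.197 in adipose stroma, 1.16 in bone marrow and 1.18 in blood, beside medians of 1.21, 1.25 and 1.33 over all genes of at least 50 CPM. ITGA5 was the leading alpha partner in all 15 clusters, and its share of alpha UMIs spanned 83.3% to 84.8% over the adipose clusters, 71.9% to 79.8% over those of bone marrow and 61.0% to 80.7% over those of blood. The blood clusters led by MEOX1 (80.7%) and CA4 (75.6%) were above the 74.7% of all bone marrow stroma, and the other 4 lay between 61.0% and 68.5%. Its highest level in bone marrow was 547 CPM, in the 727-cell cluster led by IGFBP5, TINAGL1 and UNC13D, against 298 to 350 CPM in the other bone marrow clusters. ITGA1 ran from 57.4 to 140 CPM over the blood clusters, so the lowest blood cluster was above the highest bone marrow cluster (39.9 CPM) and the highest adipose cluster (19.8 CPM). ITGAV also varied within blood, from 35.5 to 73.2 CPM.

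ITGA6 was concentrated in part of the blood stroma. The 349-cell blood cluster led by LRRN4CL, ENSBTAG00000020097 and TIMP3 had 47.0 CPM (42.8 to 51.5), against 4.16 to 12.7 CPM in the other 5. That cluster held 11.5% of the stromal-like UMIs of blood and 50.7% of the ITGA6 UMIs. It was also the blood cluster with the lowest ITGA5 share, 61.0%. Without it blood had 5.95 CPM of ITGA6, and in that comparison, chosen after seeing the data, bone marrow over blood became 3.29 (2.96 to 3.66), against 1.83 with it, and adipose over blood 0.909 (0.799 to 1.03), against 0.506 with it. The cluster was picked because its ITGA6 was highest, so the blood level had to fall without it. No cluster was left out of bone marrow or adipose stroma, so these ratios do not settle where blood lies between them.

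ITGB5 was less even between clusters than ITGB1, and ITGB3 and ITGA11 were uneven as well. In adipose stroma ITGB5 was highest, at 52.8 CPM, in the cluster led by ASPN, ACTA2 and CCN2, against a low of 19.9 CPM, and ITGB3 was highest there too at 120 CPM, against a low of 66.4 CPM. In bone marrow ITGB5 was highest at 67.0 CPM in the cluster led by SERPINF1, SORBS2 and ALDH1L2 and lowest at 22.8 CPM in the one led by IGFBP5. In blood ITGB5 had 69.8 CPM in the LRRN4CL cluster and 66.5 CPM in the one led by ENSBTAG00000052665, ASPN and SST, against 23.7 CPM in the one led by ANKRD1, FST and BASP1. ASPN, which encodes the matrix proteoglycan asporin, thus led a cluster of high ITGB5 in adipose stroma and in blood. ITGA11 had 63.2% of its 19 adipose UMIs in the adipose ASPN cluster and 49.6% of its bone marrow UMIs in the SERPINF1 cluster, which had 4.86 CPM, against 0.278 CPM in the IGFBP5 cluster. With the integrin genes kept in the clustering, the highest bone marrow cluster for both, led by CLU and SERPINF1, had 109 CPM of ITGB5 and 8.60 CPM of ITGA11. That cluster had 512 cells, against 2636 in the SERPINF1 cluster above. Neither ITGB5 nor ITGA11 was among the variable genes of bone marrow, so their own counts placed no cells there.

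**Figure D4:**
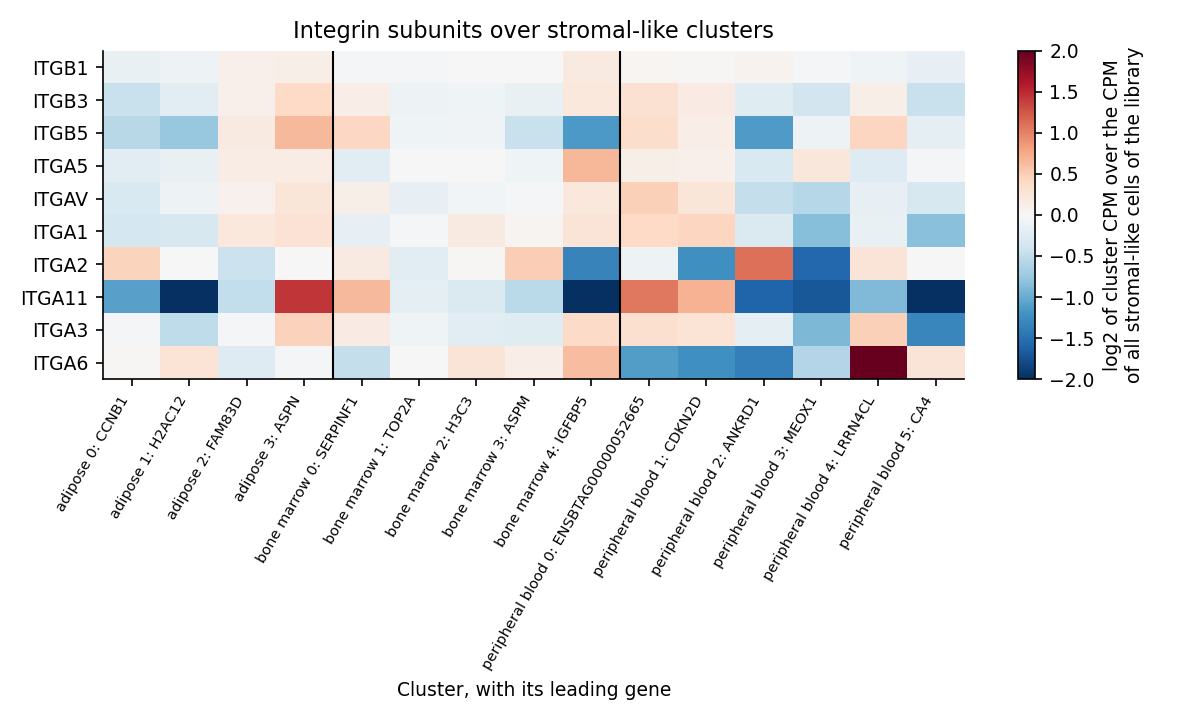
Level of each member in the 15 stromal-like clusters, as log2 of the cluster's CPM over the CPM of all stromal-like cells of its own library, with values past 2 in either direction drawn at the end of the colour scale. The blood cluster led by LRRN4CL stands out for ITGA6 (47.0 CPM), and ITGB1 is near 0 on this scale throughout. ITGA11 had 0 UMIs in the 278-cell blood cluster led by CA4.

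The genes whose log level followed a member most closely over these 15 clusters were ranked by Pearson's r among 3277 candidates, as a description with no test, since the clusters of a library share cells' culture, depth and handling. For ITGA1 they were PTN at 0.979 and MDFIC at 0.973, where PTN encodes the secreted growth factor pleiotrophin. For ITGA11 they were OMD at 0.940, which encodes the matrix proteoglycan osteomodulin, and PLK2 at 0.915. For ITGA3 they were COL8A1 at 0.935 and DTNBP1 at 0.923, for ITGA6 TPM3 at 0.864, and for ITGAV PDIA6 at 0.931. ITGB1 followed MSRB1 at 0.909 and CHSY1 at 0.902, ITGB3 FLNC at 0.791, and ITGB5 ARF3 at 0.856 and DAB2 at 0.850. The nearest gene to ITGA5 was UBE4A at 0.809, and ITGA2 had RPL27 at 0.852 among its 3 nearest.

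Cells were also split, within each library, at the median share of cell cycle gene UMIs. Between cells above and below it, called cycling and low-cycling, 0 of 3, 0 of 4 and 0 of 6 measured members were 2-fold apart in adipose stroma, bone marrow and blood, where 2.06%, 2.26% and 3.12% of all measured genes were. ITGB5 was lower in the cycling cells of all 3 libraries, with ratios of 0.748, 0.735 and 0.784, and so was ITGB3, with 0.854, 0.907 and 0.811. ITGA11 had the lowest ratios, 0.339, 0.569 and 0.396, on few UMIs. The main pair stayed near 1: ITGB1 had 1.02, 1.02 and 0.956 and ITGA5 had 0.996, 1.12 and 0.988. With 3 libraries, a two-sided exact sign-flip test cannot give a p under 0.25, so none was used.

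Macrophage-like cells in 2 of the cultures gave an internal contrast, since leukocytes rely on ITGB2 integrins. In bone marrow 515 cells led by FABP4, LYZ and S100A9 had 24.8 CPM of ITGA5, against 347 CPM in stromal-like cells, a stromal over macrophage ratio of 14.0 (11.3 to 17.5). ITGB1 had a ratio of 3.19 (2.99 to 3.41) and ITGB5 of 2.43. These 3 of 5 measured members were at least 2-fold higher in stromal-like cells, where 57.8% of 3476 measured genes were 2-fold apart in either direction and 39.9% were higher in stromal-like cells. ITGAV went the other way, at 0.579 (0.506 to 0.664), and ITGB3 (0.823) and ITGA6 (0.782) were also below 1. ITGA1 rested on 2 UMIs in macrophage-like cells (ratio 58.2, 16.1 to 481), and ITGA11 had 0 UMIs there, which allows up to 0.864 CPM. Among the alpha partners of ITGB1, the leading transcript in bone marrow thus differed between these classes. ITGAV held 50.8% of the 453 UMIs of these partners in the macrophage-like cells, ITGA6 19.2%, ITGA5 19.0% and ITGA4 9.49%. ITGAL, an alpha subunit outside this set, was more abundant than ITGAV in the macrophage-like cells. It had 445 UMIs (128 CPM), against 230 of ITGAV (66.2 CPM). ITGAM, also outside the set, had 158 UMIs (45.5 CPM). Among beta subunits ITGB2 held 51.5% there and ITGB1 32.2%, and ITGB2 stood at 413 CPM.

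In blood the 156 macrophage-like cells, led by SRGN and BLA-DQB, gave smaller ratios, 1.39 for ITGB1, 1.41 for ITGA5, 1.88 for ITGA1 and 1.37 for ITGAV (1.16 to 1.61). None of the 6 measured members was 2-fold apart, where 7.63% of 3184 measured genes were. Beside 68.1% and 9.32% in blood stromal-like cells, ITGA5 held 67.4% and ITGAV 9.56% of the 1652 alpha UMIs of these 156 cells. These cells carried stromal RNA: 12 of 16 stromal markers reached 50 CPM in them, and their stromal marker share was 0.274 of the library's median, against 0.018 for the bone marrow macrophage-like cells. In the 75 of them with little stromal marker RNA, a choice made after seeing the data that by its rule removes stromal RNA, the ratios were 16.6 for ITGA5 (10.6 to 27.5), 2.18 for ITGB1 (1.94 to 2.47) and 1.17 for ITGAV (0.844 to 1.66). ITGA6 was then higher in the macrophage-like cells, at 0.204 (0.150 to 0.284), and was below 1 in all 156 as well, at 0.499. In these 75 cells ITGB2 stood at 321 CPM and ITGAM, its partner on macrophages, at 231 CPM. Of the alpha partners of ITGB1 in these cells, ITGA6 had 43 UMIs, ITGAV 37 and ITGA5 19, against 190 of ITGAM.

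**Figure D5:**
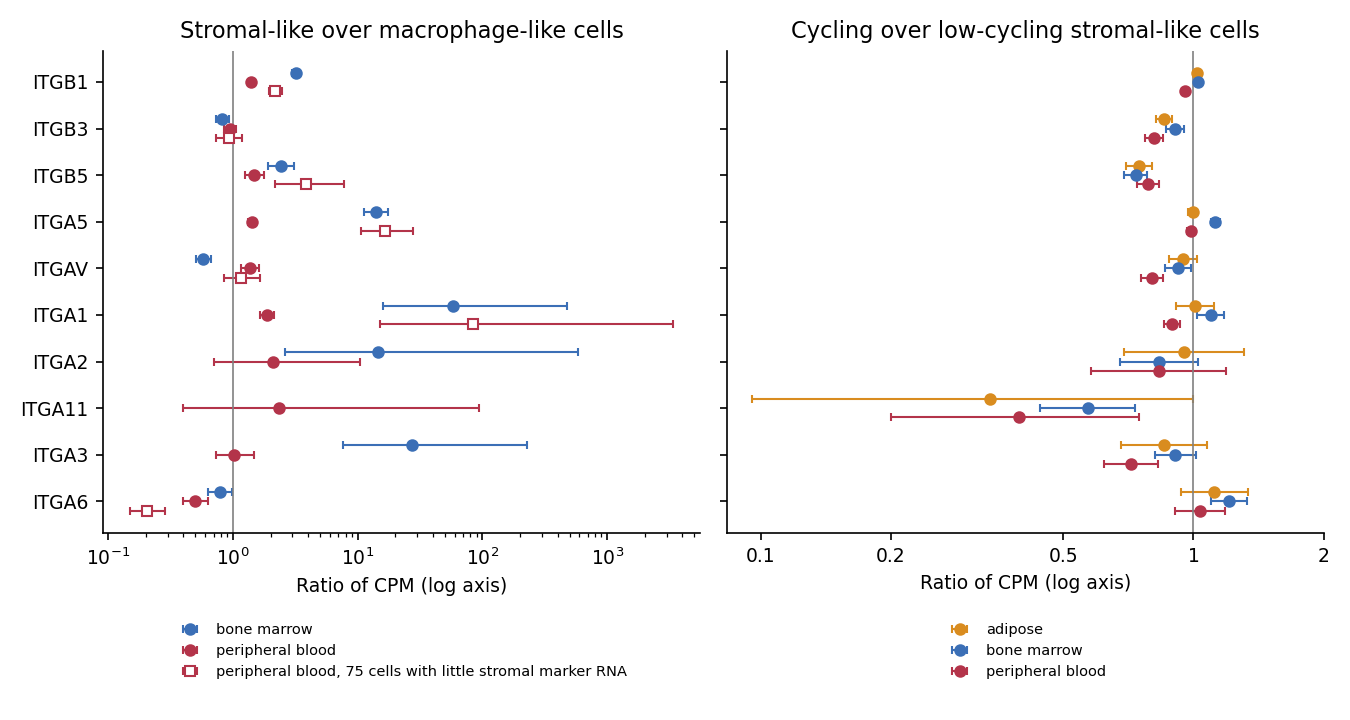
Ratios of CPM, on a log axis with exact 95% intervals, of stromal-like over macrophage-like cells (left) and of cycling over low-cycling stromal-like cells (right). ITGA5 lies at 14.0 in bone marrow and 1.41 in blood, or 16.6 against the 75 blood cells with little stromal marker RNA, and ITGB5 lies left of 1 in all 3 cycling contrasts.

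Of the other 15 integrin subunits none was measured (50 CPM) in any pair of tissues. ITGAE, a partner of ITGB7 in lymphocytes, had 11.2, 10.96 and 9.76 CPM in the stroma of adipose stroma, bone marrow and blood. Genes around the members, taken from lists of matrix ligands, tail-binding proteins and surface partners, included some that were further apart between tissues than ITGB1 and ITGA5. Their counts stand beside the 6.11% of all measured genes apart in adipose over bone marrow, 5.07% in adipose over blood and 7.35% in bone marrow over blood, and nothing particular to a list is read from them. Of 18 genes for RGD ligands, 12 were measured in adipose over bone marrow, with 2 higher and 6 lower in adipose stroma. FN1, the fibronectin bound by ITGA5 with ITGB1, had 189 CPM in adipose stroma, 761 in bone marrow and 678 in blood. SPP1, osteopontin, which ITGAV integrins bind, had 60.8, 1105 and 83.7 CPM, and THBS2 and LTBP1 were 4.97-fold and 13.1-fold lower in adipose stroma than in bone marrow. FBLN5 and THBS1, both matrix proteins that carry RGD, were 47.5-fold and 4.15-fold higher in adipose stroma than in bone marrow. In adipose over blood 1 of 9 measured RGD ligands was higher and 2 were lower, and in bone marrow over blood 3 of 11 were higher and 1 was lower.

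Of 10 collagen genes for the receptors of ITGA1, ITGA2 and ITGA11, 7 were measured, and 0 were apart in adipose over bone marrow, 3 in adipose over blood (COL1A1 2.80-fold, COL1A2 2.05-fold and COL3A1 2.19-fold lower in adipose stroma) and 2 in bone marrow over blood (COL3A1 3.36-fold and COL6A1 2.07-fold lower in bone marrow). Blood was thus the highest library for ITGA1 and for COL3A1, the chain of type III collagen. Of 10 laminin chains 3 were measured, and LAMA4 was 4.97-fold higher in adipose stroma than in bone marrow and 6.74-fold lower in bone marrow than in blood, so bone marrow was highest for ITGA3 and ITGA6 and lowest for LAMA4. Of 29 genes that link integrin tails to actin, 17 or 18 were measured in a pair, and few were apart: PXN (paxillin) was 3.29-fold higher in adipose stroma than in bone marrow, ACTN1 (alpha-actinin) 2.07-fold lower in adipose stroma than in blood, and FERMT2 (kindlin-2) 2.81-fold lower in bone marrow than in blood. Of 16 focal adhesion signalling genes 3 or 4 were measured, and FYN, 2.28-fold lower in adipose stroma than in bone marrow, was the one apart. Of 14 tetraspanins and other surface partners 11 were measured: SDC1 (syndecan-1) and PLAUR (the urokinase receptor) were 3.40-fold and 2.68-fold lower in adipose stroma than in bone marrow, SDC1 was 2.19-fold lower in adipose stroma than in blood, and PLAUR was 5.16-fold higher in bone marrow than in blood. The median log2 ratio of the collagen list was -0.14, -0.57 and -0.62 over the 3 pairs, beside the medians of all measured genes given above.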

How the data were processed

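Gene expression was measured in single cells with the 10x 3′ v3.1 kit, per the labels' protocols, in 1 library for each of 3 MSC cultures from the same donor. The deposited values are raw counts, whole numbers of UMIs for each gene in each barcode. Per the submitters' processing notes the authors made them with Cell Ranger and the ARS-UCD1.2 build. Its version is 6.1.1 in those notes and 4 per the file headers, and which of them applies was not settled. How reads shared by several genes were handled is not given here.

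The 3000 largest barcodes of a library were taken, and barcodes with over 0.1 of the 99th percentile of their totals were kept as cells (minimum 4438.5, 4414 and 7489 UMIs). The limits of at least 500 genes and at most 20% mitochondrial UMIs removed 0 cells, and no doublet caller was used. Each library was clustered alone with scanpy 1.11.5 (log values at 10000 UMIs per cell, the 2000 most variable genes, 15 neighbours in 30 principal components, Leiden clustering at resolution 0.5 with seed 1), and the integrin genes among the variable genes were left out, so that 1994, 1992 and 1992 genes were used. A first clustering that kept them had been seen by then; it is one of the alternatives. Clusters were named from lists of cell class markers, with at least 3 markers among the 50 genes of largest fold.

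UMIs were summed over the cells of a class and scaled to CPM. Levels carry exact Poisson intervals, CPM ratios exact conditional binomial intervals and shares Clopper-Pearson intervals, all at 95% and all for counting error only, and the limit for a count of 0 is 3 counts of the total. No test was run and no p-value is given, since each tissue has 1 library. A comparison is a ratio of at least 2 with at least 50 CPM in the higher group. Thinning was to 3000 UMIs per cell. Alternatives used edgeR 4.0.16 and DESeq2 1.42.0 factors, other limits and other cell sets. The calculations were tested on simulated counts. The members, the lists and the rule for named genes (the 10 members, list genes called apart, cluster leaders and the 3 genes most like each member) were chosen with earlier results of these data known. Genes named for a list's level, such as FN1 and SPP1, come from those lists. One list gene is not reported here.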

Additional observations from a re-analysis of the deposited data

Results flagged for a closer look

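Some members differed in opposite directions from 1 library to another under the same contrast, with intervals that did not include 1. Each of these differences between libraries was not tested, as there is 1 library per tissue. ITGAV had a stromal-like over macrophage-like ratio of 1.37 in blood (1.16 to 1.61) and 0.579 in bone marrow (0.506 to 0.664). The blood macrophage-like cells held stromal marker RNA, and against the 75 of them with little of it the ITGAV ratio was 1.17 (0.844 to 1.66).

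In the cycling over low-cycling contrast ITGA1 had a ratio of 1.10 in bone marrow (1.02 to 1.18) and 0.891 in blood (0.855 to 0.930). ITGB1 had 1.02 in adipose tissue (1.01 to 1.04), 1.02 in bone marrow (1.01 to 1.04) and 0.956 in blood (0.941 to 0.972). These departures from 1 are small beside the 2-fold limit.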

How the results depend on the processing

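Of 242 recomputed ratios of members between tissues, 1 was counted as changed in direction. In the low-cycling cells ITGA5 in adipose over bone marrow was 0.0041 on the log2 scale, against -0.09. A change of direction was counted only where the interval of the main ratio left out 1. Ratios with an interval that included 1, such as ITGB3 in bone marrow over blood, could not be counted in this way. Another 45 moved beyond their counting intervals and 196 did not. Counts of members apart depended on the limits. In adipose over bone marrow, with 0 members apart at 50 CPM, there were 3 at 10 CPM (ITGA1, ITGA3, ITGA6) and 5 with no minimum (those with ITGA2 and ITGA11). In adipose over blood, 1 became 3 with no minimum (ITGA1, ITGA3, ITGA11), 3 at a ratio of 1.5 (ITGA1, ITGAV, ITGB5) and 2 in the low-cycling cells (ITGA1, ITGAV). In bone marrow over blood, 1 became 3 with no minimum (ITGA1, ITGA2, ITGA11). Over all genes, at 10 CPM, with no minimum and at a ratio of 1.5, adipose over bone marrow gave 534, 2767 and 403 in place of 193. Adipose over blood gave 427, 2383 and 468 in place of 160, and bone marrow over blood 580, 2723 and 535 in place of 230. The number of genes compared is not given at these limits, nor the count over all genes in the low-cycling cells. The member counts are therefore not read against a general rate. edgeR and DESeq2 factors shifted the median of all genes by at most 0.08 (log2). Of 30 member ratios under each, 10 moved beyond their counting intervals with edgeR factors and 7 with DESeq2 factors, all among the 45 above.

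The ITGA5 share of alpha UMIs was 83.8% in adipose stroma over all kept cells, 75.6% in bone marrow at the doubled UMI minimum, 74.0% there without the 6% of cells with most UMIs and 67.5% in blood at Leiden resolution 1.0. Without ITGAV it was 91.0%, 81.5% and 75.1% in adipose stroma, bone marrow and blood. ITGA5 led in 72.7%, 67.3% and 66.3% of cells at 6000 UMIs, in 89.8%, 77.1% and 88.6% without thinning, and in 50.3% in bone marrow with seed 2. ITGB1 was seen in 96.8%, 98.8% and 98.2% of cells at 6000 UMIs, and in 83.0% of adipose and 88.7% of blood low-cycling cells. Between the outer quartiles by cycle share, ITGB5 had log2 ratios of -0.67, -0.72 and -0.59 and ITGB1 in blood -0.12. Against blood macrophage-like cells with little stromal RNA, a setting chosen after seeing the data, the log2 ratio was 4.05 for ITGA5 and 1.13 for ITGB1; here the setting's own construction removes stromal RNA. The cause was not tested for this change or for the others.

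Clustering with the integrin genes, the first form, left these shares and ratios within their counting intervals, but values by cluster moved. The highest ITGB5 cluster had 67.5 CPM in place of 52.8 in adipose stroma and 109 in place of 67.0 in bone marrow. In adipose stroma ITGB5 was itself among the clustering genes, so its own counts helped to place the cells, but in bone marrow it was not. ITGA11 in bone marrow had 8.60 CPM in place of 4.86 in its highest cluster and 0.461 in place of 0.278 in its lowest. The highest ITGB3 cluster of bone marrow was led by CLU and SERPINF1 (105 CPM) in place of IGFBP5 (91.0 CPM). No paired analysis was possible because each tissue has 1 library, and for the same reason no replicate could be left out. ITGA2, ITGA3, ITGA6 and ITGA11 lie under 50 CPM, and depth limits what can be said of them per cell.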

Other observations

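Among the adipose cells outside the stromal-like class, 39 formed an endothelial-like cluster led by SELE, EMCN and SELP, and their integrins differed from those of the stroma. ITGA2 stood at 219 CPM in them, against 1.74 CPM in stromal-like cells, and they held 36.9% of the ITGA2 UMIs of the adipose cells from 0.461% of the UMIs. ITGA6, a laminin receptor subunit also found on blood vessels, stood at 151 CPM, against 5.41 CPM, and ITGAV at 82.3 CPM, against 28.3 CPM. ITGB1 (805 CPM) and ITGA5 (242 CPM) were nearer to the stromal levels of 675 and 326 CPM. ITGB5 rested on 1 UMI, at 2.29 CPM (0.058 to 12.7), against 33.8 CPM in stromal-like cells. Of 343 alpha UMIs, ITGA5 held 30.9%, ITGA2 28.0%, ITGA6 19.2%, ITGAV 10.5% and ITGA1 9.62%, so no subunit held a majority. These cells are a single cluster of 1 library.

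ITGA6 was uneven in bone marrow too. At Leiden resolution 1.0, found without the integrin genes, an unnamed cluster of 151 bone marrow cells led by CA4, PRDM12 and ITGA6 had 90.8 CPM of ITGA6 (74.1 to 110), against 9.75 to 29.2 CPM in the stromal-like clusters of that clustering, with ITGA5 at 224 CPM and ITGB1 at 778 CPM. A UMI of ITGA6 was seen in 41.7% of its cells, at a median depth of 7270 UMIs. In blood, 2 stromal-like clusters of the same resolution had 53.6 and 35.7 CPM of ITGA6, both with LRRN4CL among their leading genes, against 2.60 to 13.2 CPM in the others.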
